A study of Mus musculus with 6 samples.

Results

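The genes described here are 39 genes known to be expressed in microglia, the resident macrophages of the brain, measured in mouse cerebral cortex. They were chosen by name, as a list of genes known from microglia, but with earlier results of these data already known. The same holds for the other gene lists below, so counts over these lists describe these samples and are not an independent test. All 39 had at least 1 of the 62 matching probes, among 27962 gene names on the array, and 38 passed the filter on dim probes and were tested, among 17265 gene names tested. The member left out was Spi1, listed on the array as Sfpi1, whose single probe was well above background on 1 control array and 0 knock-out arrays.

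Total RNA came from dissected cerebral cortex of male mice, 3 controls (numbered 15, 62 and 16) and 3 animals labelled Cux2-/- (53, 48 and 54), with 1 array per sample. Cux2 is a homeobox gene known for its expression in neurons of the upper cortical layers. The controls are titled and sourced as wild type but carry the genotype label Cux2+/-, so whether they hold 1 or 2 working copies is not settled. The labels say nothing of treatment, and age, strain and the design of the Cux2 allele are not given in the sources used here. Nothing states that the samples came from different mice, and the p-values cover no more than the spread of these 6 samples, which may be technical. The Cux2 probe (Cutl2 on the array) differed by a log2 value of -0.12 (limma, adjusted p = 0.838), and since it is not known here whether it lies inside the region that was removed, it does not check the labels.

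Microglia arise from yolk-sac progenitors, enter the brain early in development and renew themselves there. Their survival depends on signalling through the receptor Csf1r, their identity on the transcription factors PU.1 (the product of Spi1) and Irf8, and their sensing of neurons and debris on purinergic, Fc and Trem2 receptors, several of which signal through the adaptors Tyrobp and Fcer1g. In whole cortex these transcripts come from a small share of the cells, and fewer microglia and less RNA per microglial cell cannot be told apart.

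Most microglia genes gave a lower signal in knock-out than in control cortex, and 0 of 38 passed the adjusted threshold. The mean was below control for 36 of the 38 genes, where 51.8% of all genes tested were below control. The median log2 difference, knock-out minus control, was -0.34, that is 79.3% of the control signal, with quartiles of -0.40 and -0.19, against -0.01 for all genes tested. An unadjusted limma p under 0.05 with a lower mean was reached by 18 genes (4.37% of all genes tested) and with a higher mean by 0 (3.9%). All 3 knock-out arrays lay below all 3 controls for 17 genes (7.24%) and above them for 1, Mpeg1 (6.43%). After Benjamini-Hochberg adjustment over all probes the lowest adjusted p of limma was 0.222, and 0.133% of all genes passed 0.05 (0.0753% lower and 0.0579% higher). The count of 18 rested in part on single arrays: it was 10 without control 16 (4.47% of all genes tested), where the median difference was -0.23. It was 11 without knock-out 48 (3.24%). It also depended on the processing. With the normexp background correction the median was -0.12 and 26 members were below control (43.5% of all genes). Under that correction 6 were lower at an unadjusted limma p under 0.05 (0.446%). Without scaling between arrays, where the median of all genes was 0.17, these values were -0.16, 29 (13.5% of all genes) and 1 (1.08%).

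**Figure D1:**
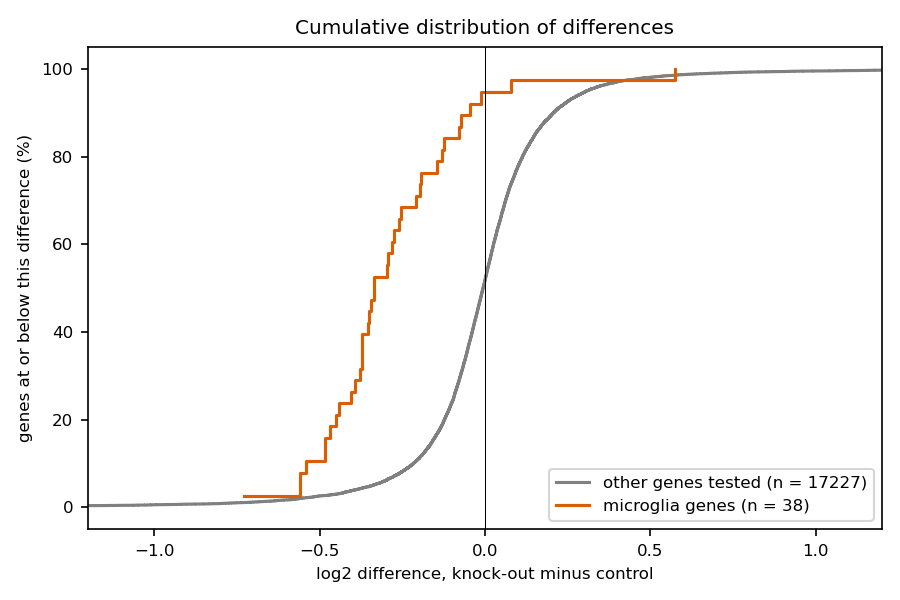
Cumulative percentage of genes (vertical axis) at or below each log2 difference, knock-out minus control (horizontal axis), for the 38 microglia genes (orange) and the other genes tested (grey). The orange curve lies to the left over most of its range: its median is -0.34, a value that 5.19% of all genes tested reach or go below.

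For the dimmer members the direction depended on the background correction. Among the 17 members whose mean log2 signal was above the array's 75th percentile, 16 were below control with a median difference of -0.35, and among the 21 dimmer members 20 were, with a median of -0.29. With normexp 16 of the 17 brighter members were below control, with a median of -0.39, and 10 of the 21 dimmer ones, with a median of 0.02. A filter blind to group, which asks for every one of the 6 arrays to exceed background, kept 36 of the 38, and 34 of these were below control. The other 2, Dock2 and Ncf1, were so on all controls and on 2 of 3 knock-outs, so they entered through the controls. A further 16 probes of 15 of the genes were tested, and all 16 were below control (50.1% of all probes). An unadjusted limma p under 0.05 was reached by 7 of them (4.07%), and 9 had no overlap of the groups (6.65%). They read the same genes in the same samples, and the brightest probe of each of the 15 was also below control. They are therefore not independent of the values above. Of these 16 probes, 5 were well above background on all controls and on 1 or 2 knock-outs, so they too entered through the controls, and they hold 3 of the 7 and 3 of the 9. The 11 probes well above background on all 6 arrays were all below control, 4 with an unadjusted limma p under 0.05 and 6 with no overlap.

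**Figure D2:**
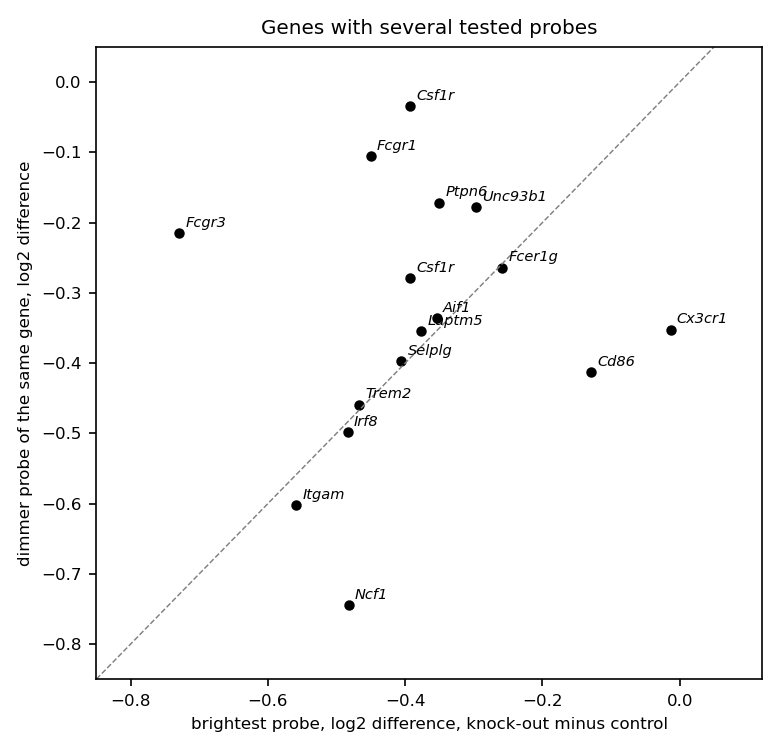
Each point is a dimmer probe of a microglia gene: its log2 difference, knock-out minus control (vertical axis), against that of the gene's brightest probe (horizontal axis), with a dashed line where they are equal. All 16 dimmer probes lie below 0, and Fcgr3 has the widest gap, with -0.73 for its brightest probe and -0.21 for the dimmer one.

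Values below are log2 signals relative to the 75th percentile of the same array, so they compare arrays for 1 probe and do not rank genes by abundance. Among the 10 surface receptors and transporters, 9 were below control (51.8% of all genes tested), and the median difference was -0.20. Of the 10, 4 were lower at an unadjusted limma p under 0.05 (4.37% of all genes tested). Csf1r, the receptor for Csf1 and Il34, stood at 1.931, 2.003 and 2.232 in controls 15, 62 and 16 and at 1.555, 1.627 and 1.804 in knock-outs 53, 48 and 54. The groups did not overlap, with control 16 the highest and knock-out 54 the nearest to the controls. The difference was -0.39 (95% interval -0.67 to -0.12, limma adjusted p = 0.457), and its 2 dimmer probes gave -0.28 and -0.03.

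Selplg, which encodes the P-selectin ligand PSGL-1 and had the lowest p among the members, stood at 2.01, 2.17 and 2.12 in the controls and at 1.72, 1.67 and 1.69 in the knock-outs. The 3 knock-outs were nearly equal and all below the controls. Its difference was -0.41 (95% interval -0.59 to -0.22, limma adjusted p = 0.222), and a second probe gave -0.40. Tmem119, a membrane protein used to tell microglia from blood-borne macrophages, stood at 1.44, 1.62 and 1.61 in the controls and at 1.13, 1.19 and 1.24 in the knock-outs. These groups did not overlap either, with a difference of -0.37 (95% interval -0.58 to -0.17, limma adjusted p = 0.309). Selplg and Tmem119 are next to each other among the protein-coding genes of chromosome 5, which also carries Cux2, with 111 and 112 coding genes between each and Cux2. Ncf1 is the third member there. Without these 3, 33 of 35 members were below control (51.8% of all genes tested), and the median difference was -0.30. Of the 35, 16 were lower at an unadjusted limma p under 0.05 (4.37% of all genes tested). Whether alleles linked to Cux2 differ between the groups was not tested.

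P2ry12, the ADP receptor that guides microglial processes to injury, had a difference of -0.13 (95% interval -0.49 to 0.24), and Siglech, a sialic acid receptor, one of -0.08 (-0.33 to 0.17). Cx3cr1, the receptor for the neuronal chemokine Cx3cl1, stood at 0.40, 0.55 and 0.68 in the controls and at 0.50, 0.47 and 0.62 in the knock-outs. The groups overlapped fully, with a difference of -0.01 (95% interval -0.25 to 0.22, limma adjusted p = 0.988), while its dim second probe, well above background on 2 of 3 knock-outs, gave -0.35. P2ry13, another ADP receptor, stood at -1.05, -0.75 and -1.08 in the controls and at -0.76, -1.06 and -0.83 in the knock-outs. It was 1 of the 2 members with a higher mean in the knock-outs, by 0.08 (95% interval -0.23 to 0.39, limma adjusted p = 0.932), with overlapping groups. Without scaling between arrays, which moved the median of all genes to 0.17, P2ry12, Siglech and Cx3cr1 were above 0 and below that median. P2ry6, the UDP receptor linked to phagocytosis, gave -0.34, Slc2a5, a fructose transporter, -0.21, and Gpr34, a lysophosphatidylserine receptor, -0.19. Whether these receptors differ from Csf1r, Selplg and Tmem119 in their response was not tested.

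**Figure D3:**
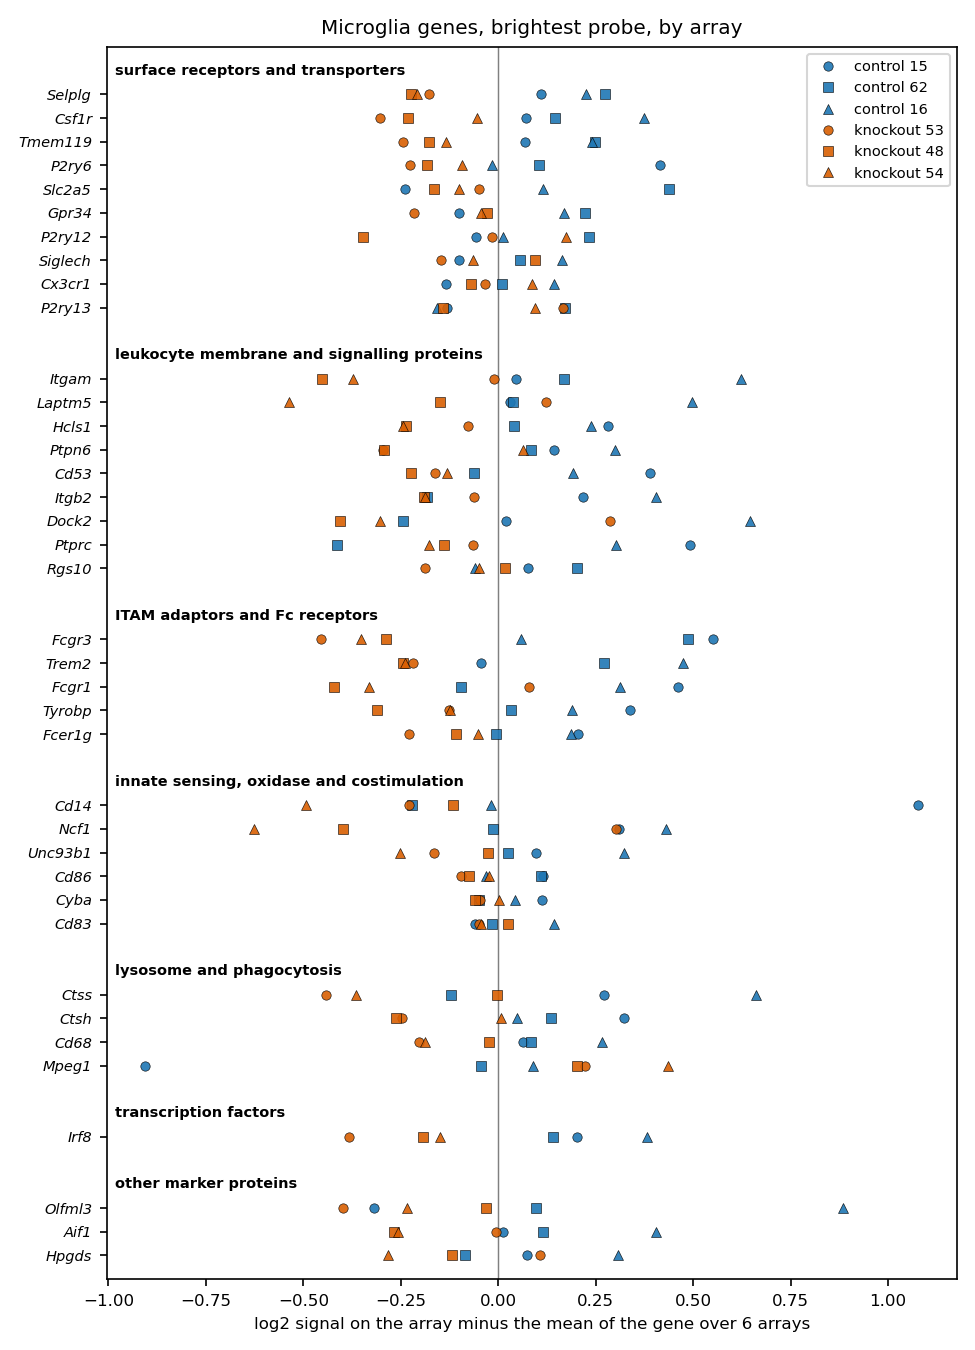
Log2 signal of the brightest probe of each microglia gene on each array minus the mean of that gene over 6 arrays (horizontal axis), with genes grouped by role, controls in blue and knock-outs in orange. Controls lie to the right of knock-outs for most genes, and control 15 lies far to the left for Mpeg1 and far to the right for Cd14.

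The 5 genes of the ITAM adaptor and Fc receptor group had the largest median difference among roles with more than 1 gene, -0.45. All 5 were below control (51.8% of all genes tested), 4 with an unadjusted limma p under 0.05 (4.37% of all genes tested were lower at that level). Fcgr3, which encodes a low-affinity receptor for immunoglobulin G, stood at 1.06, 0.99 and 0.56 in controls 15, 62 and 16 and at 0.05, 0.22 and 0.15 in the knock-outs. Control 16 was the lowest control and still above every knock-out. The difference was -0.73 (95% interval -1.07 to -0.39, limma adjusted p = 0.227), or 60.3% of control, while a dimmer second probe gave -0.21.

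Trem2, the lipid-sensing receptor that pairs with Tyrobp, stood at 2.24, 2.56 and 2.76 in the controls and at 2.07, 2.04 and 2.05 in the knock-outs. The groups did not overlap, and the controls spread far more than the knock-outs. The difference was -0.47 (95% interval -0.79 to -0.14, limma adjusted p = 0.458), and the second probe gave -0.46. Tyrobp, which encodes the adaptor DAP12, stood at 1.85, 1.55 and 1.71 in the controls and at 1.39, 1.21 and 1.39 in the knock-outs. Again every knock-out was below every control, with a difference of -0.37 (95% interval -0.63 to -0.12, limma adjusted p = 0.457). Fcer1g, the adaptor chain shared by Fc receptors, stood at 0.44, 0.23 and 0.43 in the controls and at 0.01, 0.13 and 0.19 in the knock-outs. Its groups were separated by a small gap, with a difference of -0.26 (95% interval -0.49 to -0.03, limma adjusted p = 0.576). Fcgr1, the high-affinity receptor for immunoglobulin G, gave -0.45 (95% interval -0.904 to 0.003) with overlapping groups. Its dimmer second probe gave -0.11 (95% interval -1.15 to 0.94), with knock-out 53 at -2.38, above every control.

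The upstream sequences of Fcgr3 and Trem2 are shown because they are, under the naming rule, the members of lowest p that hold the letters GAGGAA, the purine-rich core bound by PU.1, in the 250 bases before the start of the gene. RefSeq (GRCm38.p6) gave these 250 bases for 26 of the 39 members. GAGGAA was searched on both strands (read as TTCCTC on the other), and capitals mark it. Fcgr3 lies on the minus strand, at chr1:171059404-171059653, and Trem2 on the plus strand, at chr17:48346151-48346400, both written 5′ to 3′ along the gene.
Fcgr3: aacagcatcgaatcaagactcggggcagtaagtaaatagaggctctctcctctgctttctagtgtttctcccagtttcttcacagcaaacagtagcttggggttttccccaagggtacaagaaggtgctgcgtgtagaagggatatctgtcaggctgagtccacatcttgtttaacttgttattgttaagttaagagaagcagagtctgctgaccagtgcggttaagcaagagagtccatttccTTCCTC
Trem2: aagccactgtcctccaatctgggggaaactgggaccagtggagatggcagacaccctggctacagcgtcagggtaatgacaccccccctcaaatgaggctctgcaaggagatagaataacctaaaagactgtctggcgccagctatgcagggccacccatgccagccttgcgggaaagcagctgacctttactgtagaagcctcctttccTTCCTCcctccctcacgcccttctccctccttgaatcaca
Both hold 1 match, read as TTCCTC, which begins 6 bases before the gene's start in Fcgr3 and 40 bases before it in Trem2. Fcgr3 has another annotated start, with the upstream window chr1:171059395-171059644, and the match begins 15 bases before that start. The letters were present in 13 of the 26 members (50%), against 6986 of 27025 genes in the table (25.9%). Among members lower at an unadjusted limma p under 0.05 they were in 7 of 11 (63.6%). A match is a run of letters and not a measured binding site.

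Of the transcription factors, Irf8, which with PU.1 directs myeloid genes, stood at -0.07, -0.13 and 0.11 in the controls and at -0.65, -0.46 and -0.42 in the knock-outs. The groups did not overlap. The difference was -0.48 (95% interval -0.73 to -0.23, limma adjusted p = 0.272), or 71.5% of control, and the dimmer second probe gave -0.50. It kept its sign on both slides, at -0.37 and -0.65.

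All 9 leukocyte membrane and signalling genes were below control (51.8% of all genes tested), with a median difference of -0.35. Of the 9, 4 were lower at an unadjusted limma p under 0.05 (4.37% of all genes tested). Hcls1, a cortactin-related actin regulator of blood cells, stood at -0.05, -0.29 and -0.09 in the controls and at -0.41, -0.56 and -0.57 in the knock-outs. Knock-out 53 came nearest to the controls without overlapping them. The difference was -0.37 (95% interval -0.61 to -0.14, limma adjusted p = 0.397).

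Itgam, the integrin chain CD11b, stood at -2.84, -2.72 and -2.27 in the controls and at -2.90, -3.34 and -3.26 in the knock-outs. Control 15 and knock-out 53 nearly met. The difference was -0.56 (95% interval -1.003 to -0.114, limma adjusted p = 0.521), the second probe gave -0.60, and with the normexp background correction the sign turned, to 0.11. Ptpn6, the phosphatase SHP-1 recruited by inhibitory receptors, stood at -1.75, -1.81 and -1.59 in the controls and at -2.19, -2.19 and -1.83 in the knock-outs. Knock-out 54 was close to the lowest control, and the difference was -0.35 (95% interval -0.65 to -0.05, limma adjusted p = 0.564). A dim second probe of Ptpn6, well above background on 2 of 3 knock-outs, gave -0.17 with overlapping groups. Cd53, a tetraspanin of leukocytes, stood at -1.82, -2.27 and -2.02 in the controls and at -2.37, -2.43 and -2.34 in the knock-outs. Control 62 was close to the knock-outs, the difference was -0.35 (95% interval -0.64 to -0.05, limma adjusted p = 0.565), and normexp gave 0.04. The other 5, Itgb2 (the partner chain of Itgam), Ptprc (CD45), Laptm5, Dock2 and Rgs10, gave differences between -0.38 and -0.14, each with an unadjusted p above 0.05. Of these, Itgb2, Ptprc and Dock2 turned positive with normexp, and Rgs10 turned positive without scaling while staying below the median of all genes.

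Among the 4 lysosome and phagocytosis genes, Ctsh, Cd68 and Ctss were below control and Mpeg1 above. Ctsh, a lysosomal cysteine protease, stood at 2.45, 2.26 and 2.17 in the controls and at 1.88, 1.86 and 2.13 in the knock-outs. Knock-out 54 nearly reached control 16. The difference was -0.34 (95% interval -0.61 to -0.06, limma adjusted p = 0.537).

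Cd68, a glycoprotein of late endosomes, stood at -1.04, -1.01 and -0.83 in the controls and at -1.30, -1.12 and -1.29 in the knock-outs. Its groups were separate, with a difference of -0.28 (95% interval -0.50 to -0.05, limma adjusted p = 0.540). Ctss, the cathepsin that trims the MHC class II invariant chain, gave -0.54 (95% interval -1.06 to -0.02), with overlapping groups. Mpeg1, a pore-forming protein of macrophages, went the other way, at 0.69, 1.55 and 1.69 in the controls and 1.82, 1.80 and 2.03 in the knock-outs. Every knock-out was above every control, and control 15 lay far below the rest. The difference was 0.57 (95% interval -0.05 to 1.19, limma adjusted p = 0.655). Its second probe, not tested because it was well above background on 2 arrays of each group, averaged -5.39 in the controls and -4.54 in the knock-outs.

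The 6 genes of innate sensing, the oxidase and costimulation were all below control (51.8% of all genes tested), with a median difference of -0.21. Of the 6, 1 was lower at an unadjusted limma p under 0.05 (4.37% of all genes tested). That gene was Unc93b1, which carries nucleic acid-sensing Toll-like receptors to endosomes, at -0.30 (95% interval -0.56 to -0.03, limma adjusted p = 0.579). Its dimmer second probe gave -0.18 with overlapping groups. Cd14, the lipopolysaccharide co-receptor, had the widest spread, since control 15 stood at -0.19 and the other 5 arrays between -1.76 and -1.29. Cd83, a costimulatory surface protein, stood at 1.04, 1.09 and 1.24 in the controls and at 1.05, 1.13 and 1.06 in the knock-outs. Those groups overlapped, with a difference of -0.05 (95% interval -0.25 to 0.16, limma adjusted p = 0.945). Ncf1 and Cyba, subunits of the phagocyte oxidase, gave -0.48 and -0.07, and Cd86, a ligand of CD28, gave -0.13. Dim second probes of Ncf1 and Cd86, well above background on 1 and 2 of 3 knock-outs, gave -0.74 and -0.41. Without scaling Cd83, Cyba and Cd86 were positive but below the median of all genes, and with normexp Ncf1, Cyba and Cd86 were positive. Of the 3 remaining markers, Aif1 (the actin-bundling protein Iba1) gave -0.35 (95% interval -0.67 to -0.04, limma adjusted p = 0.579), Olfml3, a secreted protein, -0.44 and Hpgds, a prostaglandin D synthase, -0.20.

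**Figure D4:**
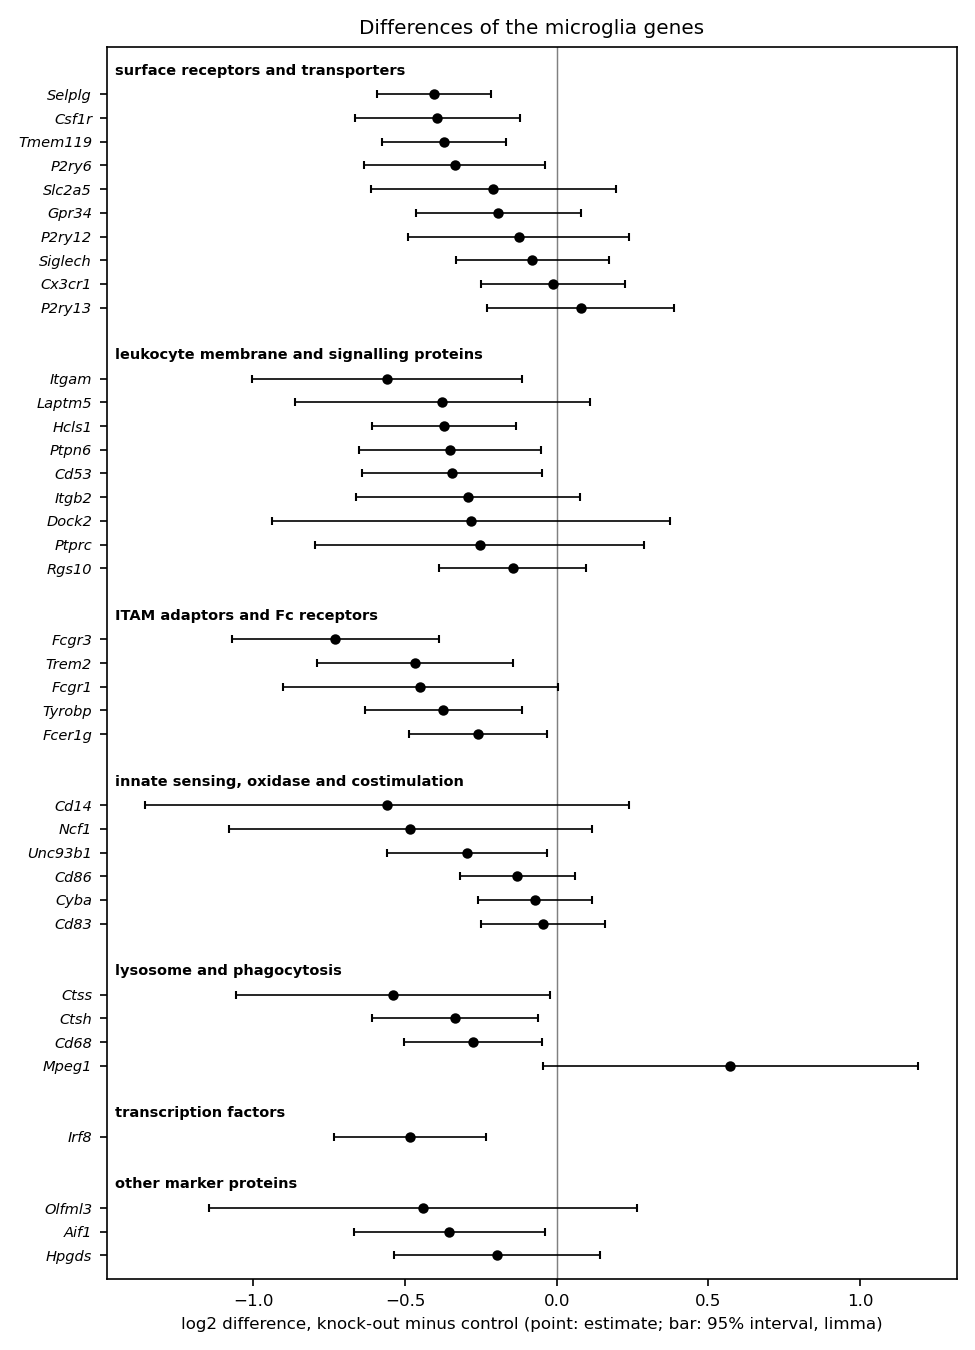
Log2 difference, knock-out minus control (horizontal axis; point, limma estimate; bar, 95% interval) for the 38 microglia genes, grouped by role. The intervals of 18 genes lie wholly below 0, and Mpeg1 and P2ry13 are the genes with an estimate above it.

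The lower signal was spread over the knock-outs but not evenly over the controls. Of the 38 members, 18 had their highest signal on control 16, 12 on control 15, 7 on control 62 and 1 on knock-out 54. The lowest signal was on knock-out 53 for 14, knock-out 48 for 12, knock-out 54 for 6, control 15 for 4 and controls 62 and 16 for 1 each. As a median over members, the deviation from each gene's mean was 0.09, 0.07 and 0.23 on controls 15, 62 and 16 and -0.14, -0.17 and -0.14 on knock-outs 53, 48 and 54. On the slide with control 15 and knock-outs 48 and 54, 30 of 38 members were lower in the knock-outs (53.3% of all genes), with a median of -0.27. On the slide with controls 62 and 16 and knock-out 53 it was 34 (52% of all genes), with a median of -0.26. On both slides 28 members were lower, and the share of all genes lower on both was not computed. Each slide holds only 1 array of one group.

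Of the ligands of these receptors, all 7 measured were below control (51.8% of all genes tested), with a median of -0.17. An unadjusted limma p under 0.05 was reached by 0 of the 7 (adjusted p of 0.649 or more). Csf1 and Il34, the ligands of Csf1r, gave -0.17 and -0.11, Cx3cl1 -0.03, Tgfb1, which maintains microglial identity, -0.21, Cd200, an inhibitory neuronal ligand, -0.35, Cd47, the "do not eat me" signal, -0.07, and Icam1, a ligand of the integrin Itgam/Itgb2, -0.53. Without scaling Csf1, Il34, Cx3cl1 and Cd47 were positive, Tgfb1 was so with normexp, and Cx3cl1 changed sign in 7 alternatives in all. A longer list of 48 other genes known from microglia had 44 tested, of which 35 were below control (51.8% of all genes tested), with a median of -0.21. At an unadjusted limma p under 0.05, 10 had a lower mean (4.37% of all genes) and 1 a higher mean (3.9%), and 0 passed the adjusted threshold. With normexp 21 were below control (43.5% of all genes) and the median was 0.01. C1qc, a chain of the complement initiator C1q, stood at 2.93, 2.74 and 3.22 in the controls and at 2.17, 2.33 and 2.50 in the knock-outs. Its groups did not overlap, with a difference of -0.63 (limma adjusted p = 0.333). Ly86, the partner MD-1 of the receptor RP105, gave -1.02 and Abi3, an actin regulator, -0.41 (limma adjusted p = 0.255 and 0.227). Runx1, a haematopoietic transcription factor, gave 0.64 (limma adjusted p = 0.352).

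Other cell types moved with the groups to different degrees, and their part in the lower microglial signal was not tested. The share of all genes tested that were below control, 51.8%, stands beside each count here. Of 12 cortical neuron genes 7 were below control (median difference -0.01) and of 12 oligodendrocyte genes 7 (-0.02). Of 11 vessel genes 5 were below control (0.01), and of 11 genes of meninges and choroid plexus 4 (0.08). Of 11 astrocyte genes 9 were below control, with a median of -0.16. Of these 11, 2 were lower at an unadjusted limma p under 0.05 (4.37% of all genes tested). All knock-outs lay below all controls for 4 of the 11 (7.24% of all genes tested). The summed scaled signal of the astrocyte genes was 201 to 238 in controls and 186 to 197 in knock-outs. All 12 genes of striatum, a neighbouring region, were below control, with a median of -0.47. Their summed signal was 105, 91.8 and 57.1 in controls 15, 62 and 16 against 55.0 to 67.1 in the knock-outs. These sums are taken over signals not on a log scale, so the brightest genes weigh most. Control 16 was low for striatal genes, and 18 of the 38 microglia genes were highest on it, more than on any other single array. Of 17 genes of neutrophils, lymphocytes and blood 5 were tested, and 1 of these was below control. The 5 were the red-cell genes Hba-a1, Hbb-b1 and Alas2, the lymphocyte gene Cd3e at 0.22 and the neutrophil gene S100a9 at -0.13, whose arrays ranged from -2.59 to 1.73. Haemoglobin genes Hba-a1 and Hbb-b1 gave 0.71 and 0.63. Controls 15, 62 and 16 had 62.7%, 67.1% and 72.7% of their probes well above background, and knock-outs 58.5% to 68.1%.

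**Figure D5:**
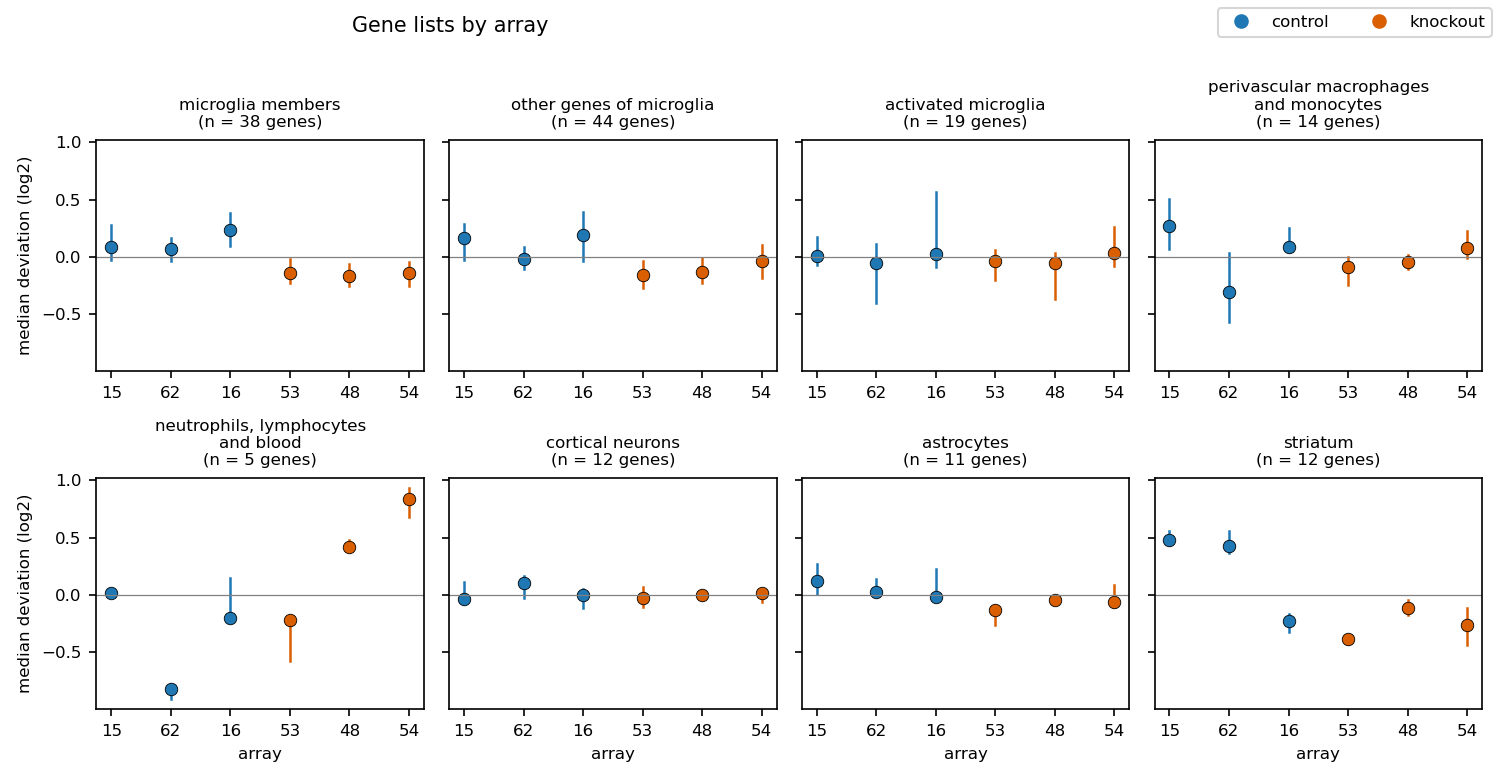
Median over the genes of each list of the log2 signal minus the gene's mean over 6 arrays (vertical axis; vertical lines, quartiles over genes) for each array, controls in blue and knock-outs in orange. All 3 controls lie above all 3 knock-outs for the microglia genes and, by smaller gaps, for the other genes of microglia and the astrocyte genes. Striatal genes are high on controls 15 and 62 only.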

How the data were processed

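Scans were read by Agilent Feature Extraction 9.1.3.1, per the file headers and the submitters' processing notes. The processed signal is an intensity, background-subtracted within each array per the file headers. A matrix of log2 values that the authors deposited has the same distribution on every array (median 6.75) and the rank order of the processed signal. Its direction and centring beyond that are not given in the sources used here.

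Control spots (1639 of 45018) and 120 spot values with an outlier flag were left out, and 0 spots were saturated. Spots of a probe were averaged. The processed signal was put on a log2 scale, and the 75th percentile of the array was subtracted. Probes were kept for testing when 1 group or both had them well above background on every array, a filter that uses the group labels (25507 of 41174 probes). Groups were compared with lmFit and eBayes of limma 3.58.1 (R 4.3.3, with data.table, version 1.17.8), two-sided, and p-values were adjusted over all tested probes (Benjamini-Hochberg) with a threshold of 0.05. The brightest tested probe stood for each gene. The procedure was tested on simulated data with planted changes larger than the members' median difference, so that test does not bear on changes of the members' size. Figures used matplotlib 3.10.9 in Python 3.11.15.

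The members and lists were chosen with earlier results of these data known. Sfpi1, Ptgds2 and Selpl were read as Spi1, Hpgds and Selplg, Selpl and the older names of some list genes after the arrays' names were seen. Array values are given for the 14 members of lowest p and the 4 of highest difference, and of the lists up to 4 genes of lowest p, 2 of highest difference and all ligands could be named, of which some were picked with values known. S100a9 and Ccr2 were named after their values were seen. Upstream sequences are printed for the 2 members of lowest p with the searched letters, passing over chromosome 18. The 250-base upstream window, short of the transcript, was set after the files were seen. Alternatives changed the scaling, background correction, filter, variance model, array weights, probe summary, slide block, deposited values and arrays used. Precision is limited by the number of arrays.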

Additional observations from a re-analysis of the deposited data

How the results depend on the processing

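No member passed the adjusted threshold under any of 19 alternatives, whose lowest adjusted p of limma for a member was 0.1003 (variance trend with robust estimation), and 696 of 720 member values kept their sign. Without scaling between arrays the median of all genes moved to 0.17. There the members' median was -0.16, or -0.33 relative to all genes, 29 were below control, 36 were below the median of all genes, 1 was lower at an unadjusted p under 0.05 (1.08% of all genes) and 3 had no overlap (1.05%). Of all genes 13.5% were below control under that setting.

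The values that changed sign without scaling were Cd83 0.13, Cd86 0.0453, Cx3cr1 0.16, Cyba 0.10, P2ry12 0.0494, Rgs10 0.0299, Siglech 0.0948, Csf1 0.007, Il34 0.0621, Cx3cl1 0.14 and Cd47 0.11. With normexp the members' median was -0.12 (all genes 0.03), 26 were below control, 6 were lower at an unadjusted p under 0.05 (0.446% of all genes), 11 had no overlap (1.7%) and 0 of all genes passed the adjusted threshold. Values that changed sign there were Cd53 0.0402, Cd86 0.36, Cyba 0.0196, Dock2 0.48, Hpgds 0.27, Itgam 0.11, Itgb2 0.0734, Ncf1 0.42, Ptprc 0.0721, Siglech 0.13, Mrc1 0.26, Ccl2 0.35 and Tgfb1 0.32. The cause was not tested. With no filter on dim probes 11 members were lower at an unadjusted p under 0.05 (2.03% of all genes).

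Cx3cr1 was 0.0046 with the 75th percentile over detected probes and 0.0149 with slide as a block. Cx3cl1 was 0.0312 with quantile normalization, 0.0165 with the mean of probes, 0.0112 with the slide block and 0.0295 in the deposited log2 table. Leaving out 1 array gave medians from -0.38 to -0.23, 34 to 36 members below control, 10 to 19 lower at an unadjusted p under 0.05 (3.24% to 5.37% of all genes) and 18 to 24 with no overlap (10.4% to 15.4%, since fewer arrays are compared). Over these fits Cd83 ranged from -0.0858 to 0.0146, Cx3cr1 from -0.0833 to 0.055, P2ry12 from -0.2434 to 0.0165 and Cx3cl1 from -0.0779 to 0.0533, and the other members kept their sign. Chosen after seeing the data, leaving out Selplg gave 35 of 37 members below control and a median of -0.335. No paired analysis was possible because the groups share no replicate numbers. Signal over background limits Dock2, Ncf1 and Spi1.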

Other observations

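Genes of activated microglia and of other macrophages were measured in the same arrays. Of 27 genes linked to activated microglia 19 were tested, 14 below control (51.8% of all genes tested), and the median difference was -0.09. At an unadjusted limma p under 0.05, 2 had a lower mean (4.37% of all genes) and 1 a higher mean (3.9%). Spp1, the secreted phosphoprotein osteopontin, stood at -0.76, -0.46 and -1.53 in controls 15, 62 and 16 and at 0.24, 1.01 and 1.53 in knock-outs 53, 48 and 54. All knock-outs were above all controls, by 1.84 (95% interval 0.92 to 2.77, limma adjusted p = 0.259), and Spp1 lies on the same chromosome as Cux2. Ctsd, a lysosomal protease, gave -0.23, Ccl2, a monocyte chemokine, -0.72 and Lpl, lipoprotein lipase, 0.30.

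Of 18 genes of perivascular macrophages and monocytes 14 were tested, 8 below control (51.8% of all genes tested), with a median of -0.04. At an unadjusted limma p under 0.05, 3 had a lower mean (4.37% of all genes) and 0 a higher mean (3.9%). All knock-outs lay below all controls for 3 of the 14 (7.24% of all genes). Clec4a2, a C-type lectin receptor, gave -0.57 (limma adjusted p = 0.382) and Mrc1, the mannose receptor of perivascular macrophages, -0.29. The monocyte receptor Ccr2 was well above background on 1 array at most. The summed scaled signal of the 14 genes was 13.3 to 21.0 in controls and 16.5 to 21.0 in knock-outs, with control 62 the lowest. In this sum too the brightest genes weigh most.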
